A study of Mus musculus with 8 samples.

Results

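Claudins, occludin and zonula occludens 1 build the tight junction that seals the spaces between epithelial cells. The gallbladder transcripts of 10 such genes were described here, in mice that lack functional leptin and were given leptin or saline: the claudins Cldn1, Cldn2, Cldn3, Cldn4, Cldn5, Cldn7, Cldn12 and Cldn15, occludin (Ocln) and Tjp1. Every probe set of the array whose only annotated symbol was one of these was taken, which gave 19 of 45101 probe sets. The rule reads symbols and no measured value, but the genes were picked with earlier results of these data known. With leptin, Cldn5, the claudin best known from blood vessel endothelium, was higher: its log2 fold change was 0.59 ± 0.16 (SE, n = 4 pools in each treatment). It was the only call, and it was lost in 14 of 21 other settings, which changed the processing or left out a single pool. None of the other 9 genes passed the test in either direction.

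All groups were female B6.V-Lep ob mice, which are homozygous for the obese mutation of the leptin gene; the strain is labelled for 7 of 8 pools, and the design text gives it for all. There were 24 mice, 12 in each treatment, obtained at 7 weeks of age and kept on standard chow, with 1 week to settle. For 4 weeks they had a daily intraperitoneal injection of recombinant mouse leptin, at 5 µg per g body weight, or of saline, and at 12 weeks of age, after a night without food, the gallbladders were taken out. RNA was pooled from 3 gallbladders, so each of the 4 leptin and 4 saline pools averages several animals. No wild-type or lean mice were among the samples, so the saline pools show the leptin-deficient state and not a normal one. Pools carry their numbers from the labels, saline 1 to 4 and leptin 5 to 8.

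Each pool was measured on 1 Affymetrix Mouse Genome 430 2.0 array, and the values are MAS 5.0 signals, a linear intensity per probe set. A probe set is a group of short probes against the end of 1 transcript or of related ones, and signals of different probe sets cannot be set against each other, so the 10 genes have no order of level. The trimmed mean signal was 250 on all arrays. Median signals lay between 94.0 and 107 in leptin pools and between 77.8 and 87.3 in saline pools. The ratio of the actin probe set near the 3' end to that near the 5' end, a measure of RNA integrity, lay between 1.67 and 2.17 with leptin and between 1.50 and 1.68 with saline. In this ratio all leptin pools but leptin 7 lay above every saline pool. A fit with the ratio as a covariate therefore cannot fully separate it from leptin. The part of the differences in median signal and actin ratio in the results was not tested beyond the alternatives given with them. On the second principal component the leptin 7 pool lay apart, at -49.1 against -12.6 to 23.7 in the other 7 pools. Where leaving that pool out turned a log2 fold change of the 10 genes or moved it by over 1.5 times, both values are given.

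In a tight junction, claudins form strands that run around the cell and decide which ions pass between cells. Some, such as Cldn2 and Cldn15, form pores for small cations, whereas others, such as Cldn1 and Cldn3, tighten the barrier. Occludin is a second membrane protein of the strands, and Tjp1 is the scaffold (ZO-1) under the membrane that ties them to actin. The gallbladder epithelium concentrates bile by absorbing salt and water, and has long been studied as a leaky epithelium, through which ions also pass between the cells.

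Promoter sequences from RefSeq on GRCm38.p6 (250 bases before and 50 after the annotated start site) were found for all 10 genes, 14 sequences in all. Leptin's receptor signals through STAT factors, so the STAT motif TTCNNNGAA was searched on both strands. It occurred in 3 of the 14 sequences, belonging to Cldn7 and Cldn12, and in 8.3% of all 32851 promoters of the table. One matching sequence of each is shown, with the match in capitals, beside that of Cldn5, the gene called, where capitals mark a GC box (GGGCGG, here on the other strand). Each is written 5′ to 3′ on the strand of the gene.
Cldn5, chr16:18776597-18776896, plus strand: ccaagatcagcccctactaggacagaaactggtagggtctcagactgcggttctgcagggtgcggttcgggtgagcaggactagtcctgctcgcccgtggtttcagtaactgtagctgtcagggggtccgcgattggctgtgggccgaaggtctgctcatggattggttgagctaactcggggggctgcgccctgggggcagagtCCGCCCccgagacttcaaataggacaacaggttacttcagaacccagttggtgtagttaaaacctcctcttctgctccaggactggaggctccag
Cldn7, chr11:69965171-69965470, plus strand: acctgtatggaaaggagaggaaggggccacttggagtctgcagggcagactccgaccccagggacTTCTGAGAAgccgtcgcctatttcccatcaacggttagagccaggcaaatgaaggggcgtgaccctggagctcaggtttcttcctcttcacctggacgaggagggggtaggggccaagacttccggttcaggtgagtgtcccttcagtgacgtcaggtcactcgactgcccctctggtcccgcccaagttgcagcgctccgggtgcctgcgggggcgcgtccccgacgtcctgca
Cldn12, chr5:5514800-5515099, minus strand: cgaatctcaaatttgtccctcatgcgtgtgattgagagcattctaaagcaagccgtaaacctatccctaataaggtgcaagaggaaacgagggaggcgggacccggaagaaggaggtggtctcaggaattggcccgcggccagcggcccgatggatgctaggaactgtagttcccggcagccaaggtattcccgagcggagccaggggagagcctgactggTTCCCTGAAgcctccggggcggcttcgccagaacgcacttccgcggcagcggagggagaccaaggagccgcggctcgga

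The match began 185 bases before the second annotated start site of Cldn7 and 29 bases before this start site of Cldn12. The other annotated Cldn7 promoter and the first of 3 Cldn12 promoters held none, and the third, which overlaps the one shown, held the same letters. The GC box GGGCGG, searched on both strands, was found in 11 of the 14 sequences and in 35.7% of all promoters. Cldn2 was the only gene without it and the only one with the TATA box TATAAA, which 13.6% of all promoters held. The sequence CACCTG, bound by the Snail and ZEB repressors known to act on claudin and occludin genes, occurred in 5 of the 14 sequences, those of Cldn3, Cldn4, Cldn7 and Ocln, and in 20.2% of all promoters. The Ocln sequences overlap each other and share a match, so that site counts for both. The same holds for the GC box of the overlapping Cldn12 sequences. The SOX motif AACAAT occurred in 0 of the 14 sequences and in 10.7% of all promoters. These are matches of letters and do not show binding, and no link between a motif and a change in signal was tested.

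Of the 19 probe sets, 16 passed the filter on low values and were tested, with at least 1 for each gene. With limma 1 was called higher with leptin at an adjusted p under 0.05, against 3.54% of all 22519 tested probe sets, and 0 were called lower, against 3.39%. Together this is 6.25% of the 16, while 6.93% of all tested probe sets were called. At an unadjusted p under 0.05 there were 4, against 23.5% of all tested probe sets. For 1 of the 16 every leptin pool lay above every saline pool, compared with 8.12% of all, and for 0 below, compared with 7.4% (15.5% in either direction). The median log2 fold change was 0.066 in these probe sets and 0.039 in all tested ones, and the median size without sign was 0.21 and 0.23. With each array centred on its median, which moved the median of all tested probe sets to -0.21, 0 of the 16 were called higher and 4 lower (Cldn2, Cldn7, Cldn12 and Tjp1), among 406 higher and 3586 lower in all, in place of 798 and 763. As reported, the share called was therefore near that of the array as a whole. For 14 of the 16 the 95% interval of the change lay within 2-fold in both directions.

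**Figure D1:**
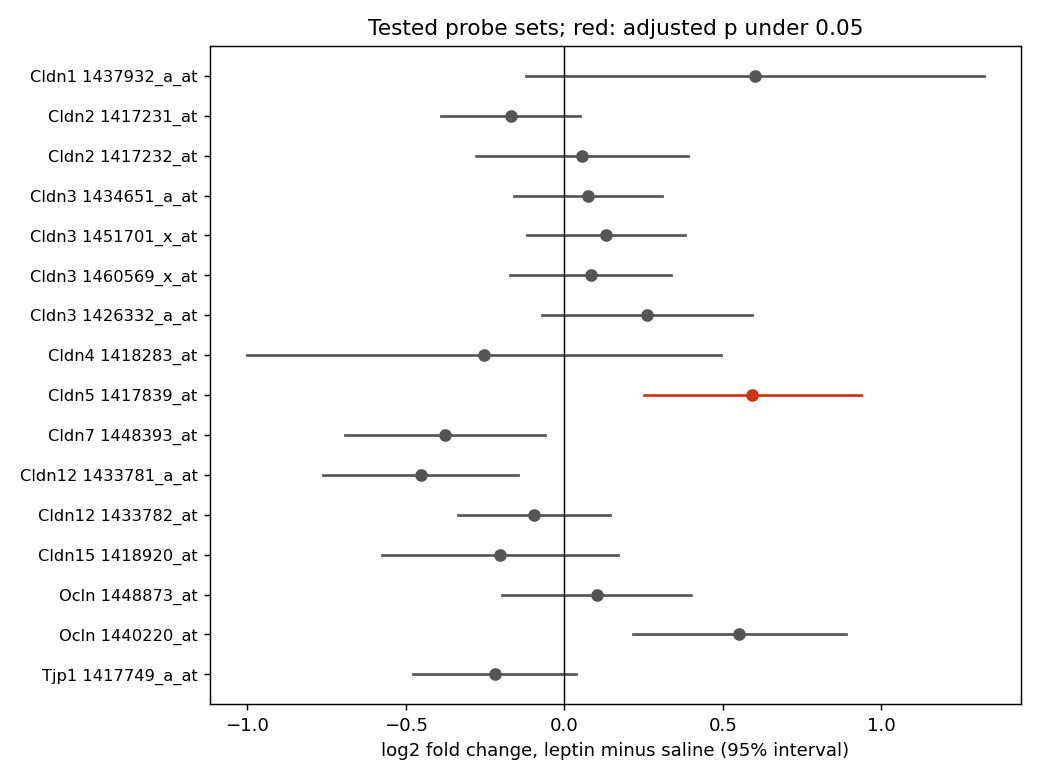
Log2 fold change of each tested probe set, leptin minus saline, with its 95% limma interval (n = 4 pools in each treatment); the Cldn5 probe set, in red, is the only one with an adjusted p under 0.05. The widest intervals are those of Cldn1 and Cldn4, and the intervals of Cldn7, Cldn12 1433781_a_at and Ocln 1440220_at also leave out 0 without passing after adjustment.

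Cldn5 (probe set 1417839_at) had signals of 296, 286, 441 and 377 in saline pools 1 to 4 and 573, 472, 489 and 571 in leptin pools 5 to 8. Every leptin pool lay above every saline pool, with 471.8 as the lowest leptin and 440.5 as the highest saline signal. The means were 526 ± 53.4 (SD, n = 4) and 350 ± 72.9 (SD, n = 4), and the fitted change was 1.51-fold, with a 95% interval of 1.19 to 1.91 (limma adjusted p = 0.0417). The call was lost in 7 of the 8 fits that left out 1 pool, with adjusted p from 0.0511 without leptin 7 to 0.120 without saline 2, and passed without saline 3 (0.0236). In these fits the log2 fold change stayed between 0.51 and 0.71. With each array centred on its median it was 0.34 (adjusted p = 0.173), and with the actin ratio as a covariate 0.40 (0.381).

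**Figure D2:**
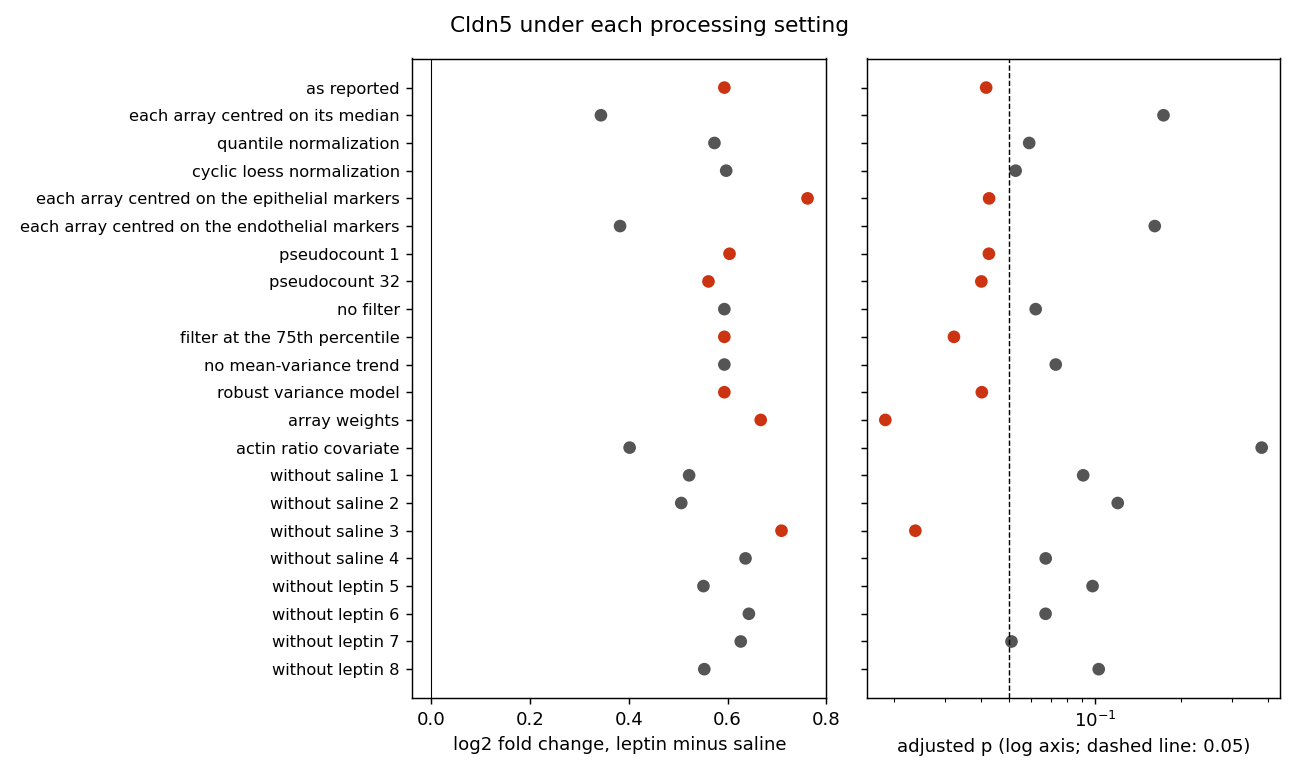
Log2 fold change of Cldn5 (left) and its limma adjusted p on a log axis (right) as reported and under 21 other settings, red where the adjusted p was under 0.05. All fold changes lie above 0, between 0.34 and 0.76, while the adjusted p runs from 0.0186 to 0.381.

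Because Cldn5 marks endothelium, its change was set beside 15 endothelial marker genes, of which 14 were tested. Of these 14, 1 was called higher and 0 lower with limma, against 3.54% and 3.39% of all tested probe sets. At an unadjusted p under 0.05 there were 2, against 23.5% of all, and the median log2 fold change was 0.16. The summed signal of the markers lay between 5907 and 6343 in saline pools and between 6235 and 7109 in leptin pools, so the ranges overlapped. Sox17 made up the largest part of that sum; without it, a sum added after the data were seen, the range was 3420 to 3973 with saline and 4026 to 5011 with leptin, without overlap. None of the 15 markers was under background in all pools of a treatment. The marker not tested was Tie1, which failed the filter on low values. Its signals ran from 32.9 to 56.7 with saline, with 2 pools under background, and from 88.1 to 104.7 with leptin, without overlap. The gene called was Sox18, a transcription factor of vascular and lymphatic endothelium. Its signals were 121, 131, 177 and 180 with saline and 262, 271, 337 and 224 with leptin, again without overlap. Its log2 fold change was 0.82 ± 0.19 (SE; limma adjusted p = 0.0220); the call was lost in 5 of 20 other settings, which were the fits without saline 1, saline 2 or leptin 6, with endothelial marker centring and with the actin covariate (adjusted p up to 0.118). Cdh5, the cadherin of endothelial junctions, and Kdr, a receptor for vascular endothelial growth factor, had log2 fold changes of 0.40 ± 0.19 and 0.38 ± 0.20 (adjusted p = 0.217 and 0.283). Pecam1, a surface marker of endothelium, was at -0.040 ± 0.18 (adjusted p = 0.922). Sox17, read from a probe set with the suffix _x_at that can also bind other transcripts, and Ptprb, the markers with the highest signals, were at -0.069 ± 0.10 and 0.27 ± 0.15 (adjusted p = 0.728 and 0.295). Whether the Sox17 signal comes from endothelium in this organ was not tested. With every array centred on the mean of the tested markers, Sox17 among them, Cldn5 was at 0.38 (adjusted p = 0.161). That fit was chosen after the data were seen. In a whole organ, more endothelial cells and more Cldn5 RNA per cell cannot be told apart.

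Among 11709 other tested genes, each read from its brightest probe set, the profile most like that of Cldn5 was that of Ifitm3, an interferon-induced membrane protein. Likeness was measured as the root mean square difference between log2 values centred on each gene's mean over the 8 pools, which was 0.092. Ifitm3 had mean signals of 3209 with saline and 4928 with leptin and a log2 fold change of 0.63 ± 0.15 (SE; limma adjusted p = 0.0268), a call that was lost in 10 of 21 other settings. The next was 1810030O07Rik, at 0.098, with a log2 fold change of 0.54 ± 0.16 (adjusted p = 0.0619). Both genes were picked because their values follow those of Cldn5. Their fold changes and p-values therefore describe that choice and lend the Cldn5 call no further weight.

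Cldn7, a claudin found along the lateral membrane of many epithelia, had signals of 3714, 2680, 2664 and 3859 with saline and 2035, 2816, 2516 and 2494 with leptin. Leptin 6 lay above saline 2 and saline 3, so the groups overlapped, and the saline pools themselves formed a high and a low pair. The log2 fold change was -0.38 ± 0.15 (SE), a fold of 0.771 with a 95% interval of 0.619 to 0.959, and the adjusted p was 0.143. With each array centred on its median it was -0.63 (adjusted p = 0.0178), centred on the endothelial markers -0.59 (0.0485), and with the actin ratio as a covariate -0.024 (0.959).

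Cldn12, a claudin linked to calcium passage between cells, had 2 probe sets. On the brighter, 1433781_a_at, signals were 1004, 1089, 933 and 1180 with saline and 697, 983, 648 and 764 with leptin. Leptin 6 lay among the saline pools and the other leptin pools lay below them all. The log2 fold change was -0.45 ± 0.14 (SE; limma adjusted p = 0.0745), and without leptin 6 it was -0.57 and passed (adjusted p = 0.0350). It also passed with each array centred on its median (-0.70, adjusted p = 0.0105) or on the endothelial markers (-0.66, 0.0223). On the other, 1433782_at, means were 733 ± 52.1 (SD, n = 4) and 684 ± 33.9 (SD, n = 4), and the log2 fold change was -0.096 ± 0.11 (adjusted p = 0.644). The difference between the 2 probe sets of Cldn12 moved by 0.36 on the log2 scale between treatments (two-sided exact permutation p = 0.0857, adjusted 0.257 over 6 such pairs).

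Occludin also had 2 probe sets that gave unequal values. The brighter, 1448873_at, had signals of 1720, 1285, 1182 and 1690 with saline and 1459, 1543, 1771 and 1472 with leptin, and a log2 fold change of 0.10 ± 0.14 (SE; limma adjusted p = 0.697). Without leptin 7, the highest pool, it was 0.040 (adjusted p = 0.902), and with the actin ratio as a covariate 0.40 (0.238). The dimmer, 1440220_at, had 274, 275, 334 and 370 with saline and 369, 479, 526 and 477 with leptin. There leptin 5, at 369.3, lay just under saline 4, at 370.0, and all other leptin pools lay above every saline pool. Its log2 fold change was 0.55 ± 0.16 (SE), a fold of 1.47 with a 95% interval of 1.16 to 1.85, and its adjusted p of 0.0508 missed the threshold. It passed in 6 of 21 other settings, among them the fits without leptin 5 (0.0359) and with each array centred on the epithelial markers (0.0296). The difference between both Ocln probe sets moved by 0.45 on the log2 scale (two-sided exact permutation p = 0.0571, adjusted 0.257). The smallest p this test allows with 4 against 4 pools is 0.0286.

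The scaffold gene Tjp1 (1417749_a_at) had signals of 2541, 2154, 2027 and 2866 with saline and 2092, 2052, 2124 and 1894 with leptin. The leptin pools lay close together, at 2041 ± 102 (SD, n = 4), while the saline pools spread more widely, at 2397 ± 382 (SD, n = 4), and the ranges overlapped. The log2 fold change was -0.22 ± 0.12 (SE; limma adjusted p = 0.291). With each array centred on its median it was -0.47 (adjusted p = 0.0347).

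The pore-forming claudin Cldn2 (1417231_at) had signals of 6232, 6095, 5478 and 6985 with saline and 5139, 5204, 6153 and 5520 with leptin. The fold was 0.889, with a 95% interval of 0.764 to 1.03 (log2 fold change -0.17 ± 0.10, SE; limma adjusted p = 0.338). Its second probe set, 1417232_at, was at 0.057 ± 0.15 (adjusted p = 0.862). There leptin 7 was highest, at 3700 against 2218 to 2565 in the other leptin pools, and without it the log2 fold change was -0.11. With each array centred on its median, 1417231_at was at -0.42 (adjusted p = 0.0226). Cldn15, the other pore-forming claudin, had signals of 190, 207, 205 and 177 with saline and 169, 204, 135 and 170 with leptin, with overlap and a log2 fold change of -0.20 ± 0.17 (SE; adjusted p = 0.508). Without leptin 7, the lowest pool, it was -0.10 (adjusted p = 0.766).

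Among the barrier claudins, Cldn3 was read by 4 probe sets, and none of them was called. The brightest, 1434651_a_at, had signals of 3878, 2948, 3100 and 2992 with saline and 3359, 3264, 3252 and 3660 with leptin, and a log2 fold change of 0.075 ± 0.11 (SE; limma adjusted p = 0.718). Its 95% interval of 0.896-fold to 1.24-fold was among the narrower ones. The others were at 0.13, 0.083 and 0.26, with adjusted p from 0.332 to 0.713. Those with the suffix _x_at can also bind other transcripts. Saline 1 was the highest saline pool on all 4. Without it the 4 log2 fold changes were 0.17, 0.22, 0.20 and 0.41 in the same order, with adjusted p from 0.0696 (1426332_a_at) to 0.321.

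Cldn1 was dim. Of its 4 probe sets, 1437932_a_at alone was tested, with signals of 53.8, 111, 84.7 and 81.6 with saline and 147, 161, 59.4 and 176 with leptin. Leptin 7 was the lowest leptin pool, under 3 of the saline pools, and the other leptin pools lay above all saline pools. The log2 fold change was 0.60 ± 0.33 (SE; limma adjusted p = 0.300), and without leptin 7 it was 0.93 (adjusted p = 0.0508). With the actin ratio as a covariate it turned to -0.12 (adjusted p = 0.917). Probe set 1450014_at had means of 79.3 ± 39.9 with saline and 89.0 ± 53.5 with leptin (SD, n = 4), again with leptin 7 lowest, at 10.6. A signal under 46.0 counted as not above background: 1438850_at was below it in all 8 pools, and 1438851_x_at in all pools but leptin 8 (47.4).

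Cldn4, the gene next to Cldn3 in the genome, had signals of 271, 212, 266 and 191 with saline and 292, 281, 72.3 and 230 with leptin. Leptin 7 stood far below all other pools of both treatments. The log2 fold change was -0.25 ± 0.35 (SE; limma adjusted p = 0.700), and without leptin 7 it turned to 0.19 (adjusted p = 0.577). With the actin ratio as a covariate it was -1.11 (adjusted p = 0.172). Cldn1 and Cldn4 had the widest spread within treatments of these genes, with a standard deviation of 0.55 and 0.66 on the log2 scale, against a median of 0.26 over all tested probe sets. In contrast, that of Cldn12 1433782_at was 0.086 and that of Cldn2 1417231_at 0.13.

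**Figure D3:**
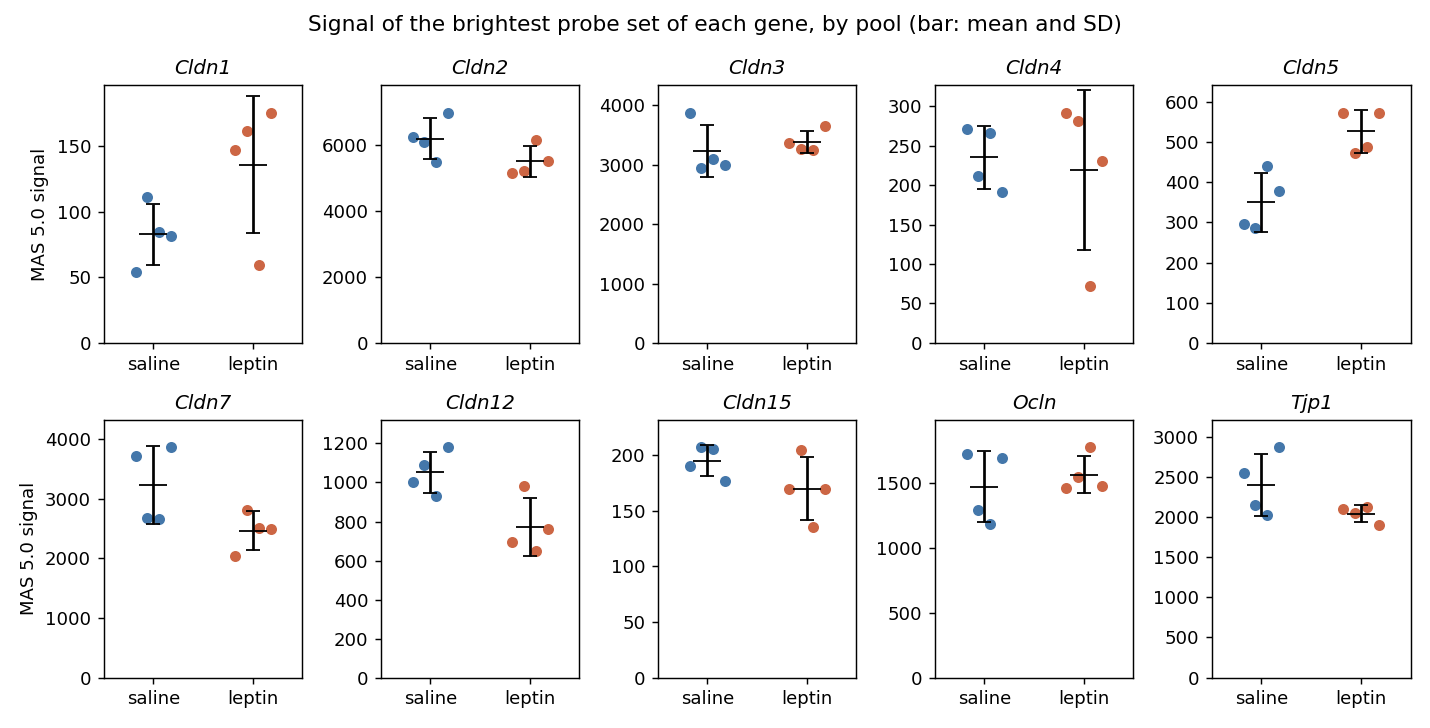
MAS 5.0 signal of the brightest probe set of each gene in every pool (points; blue saline, orange leptin) with the mean and SD of 4 pools; each panel has its own axis from 0. The groups are apart for Cldn5, whereas in the Cldn1 and Cldn4 panels 1 low leptin point is leptin 7.

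Other genes of the tight junction, from lists chosen with earlier results of these data known, are read against the 6.93% called among all tested probe sets. Of the 19 other claudin family symbols, Cldn17, Cldn20, Cldn24 and Cldn34a had no probe set under 1 symbol. Cldn25 was read as Cldnd1, which was also listed, so 14 genes remained. Of these 5 were tested, with 1 called higher and 0 lower with limma (2 at an unadjusted p under 0.05), and a median log2 fold change of 0.35. The gene called was Cldn8, a claudin of tight epithelia such as the distal kidney tubule, which had signals of 500, 354, 355 and 445 with saline and 770, 761, 443 and 909 with leptin. Leptin 7 lay among the saline pools. The log2 fold change was 0.76 ± 0.20 (SE; limma adjusted p = 0.0430), and without leptin 7 it was 0.97 (adjusted p = 0.0033). The call was lost in 12 of 21 other settings, with adjusted p up to 0.341.

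Of 40 scaffold, polarity and other tight junction genes 35 were tested; 1 was called higher and 1 lower (5.71% in all), 11 had an unadjusted p under 0.05 (31.4%, against 23.5% of all tested probe sets), and the median log2 fold change was -0.13. Tjp3, the scaffold ZO-3, had signals of 510, 410, 415 and 376 with saline and 571, 637, 594 and 574 with leptin, without overlap. Its log2 fold change was 0.47 ± 0.13 (SE; limma adjusted p = 0.0452), and the call was lost in 12 of 21 other settings, with adjusted p up to 0.324. Prkci, the atypical protein kinase C of the polarity complex, had signals of 1711, 1292, 1303 and 1434 with saline and 951, 808, 961 and 902 with leptin. All leptin pools lay below all saline pools, and the log2 fold change was -0.65 ± 0.12 (SE; adjusted p = 0.0071). It passed in all 8 fits that left out 1 pool (adjusted p up to 0.0286) and missed only with the actin covariate (-0.56, adjusted p = 0.119). Adherens junction and desmosome genes had 20 of 21 tested, with 0 called higher and 1 lower with limma (6 at an unadjusted p under 0.05) and a median of -0.15. The gene was Ppl, which encodes the desmosomal linker periplakin, at -0.51 ± 0.12 (SE; adjusted p = 0.0289); that call was lost in 10 of 21 other settings, with adjusted p up to 0.416. The 6 genes of this list with an unadjusted p under 0.05 were 30% of the 20 tested, against 23.5% of all tested probe sets. For 6 of the 20 every leptin pool lay below every saline pool, and for 0 above, against 7.4% and 8.12% of all tested probe sets. Cdh1, the epithelial cadherin, was at -0.17 ± 0.12 (adjusted p = 0.401).

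Marker counts are read against all tested probe sets, of which 6.93% were called with limma and 23.5% had an unadjusted p under 0.05. No epithelial marker was under background in all pools of a treatment. Of 12 tested, 0 were called higher and 2 lower with limma (5 at an unadjusted p under 0.05), the keratins Krt8 (-0.58 ± 0.10, SE; limma adjusted p = 0.0051) and Krt18 (-0.35 ± 0.089, adjusted p = 0.0350), and the list's median was -0.17. Krt8 lost its call in 2 of 21 other settings (adjusted p up to 0.132) and Krt18 in 13 (up to 0.389). The summed signal of all 12 epithelial markers lay between 41634 and 53209 with saline and between 37642 and 41493 with leptin, without overlap. Without the keratins Krt8, Krt18 and Krt19, a sum added after the data were seen, it lay between 17327 and 23896 with saline and between 19756 and 21276 with leptin, so the ranges overlapped. Epcam, an epithelial surface protein, was at -0.0062 ± 0.12 (adjusted p = 0.982). With each array centred on the mean of the tested epithelial markers, Cldn5 and Ocln 1440220_at were called higher, and Cldn7 and Cldn12 1433781_a_at were at -0.21 and -0.28 (adjusted p = 0.337 and 0.290). In the same fit Cldn2 1417231_at was at -0.00077 and Tjp1 at -0.051. Of the leukocyte markers 9 of 9 tested were called higher, with a median of 1.50, and their summed signal lay between 2739 and 3745 with saline and between 8909 and 9444 with leptin. Mesothelial, hepatocyte, pancreatic acinar and intestinal epithelial markers had 0 calls among 8, 11, 3 and 5 tested with limma, and 1, 0, 0 and 1 at an unadjusted p under 0.05. Hepatocyte markers were present at high signals in all pools. Their sum lay between 93518 and 151561 with saline and between 112957 and 140090 with leptin, so the ranges overlapped. Of 10 smooth muscle markers 1 was called higher (Smtn, a cytoskeletal protein) and 1 lower (Actg2, the enteric smooth muscle actin), with 4 at an unadjusted p under 0.05. Of 6 adipocyte markers 1 was called lower (Cidec, a lipid droplet protein), with 4 at an unadjusted p under 0.05 and a median log2 fold change of -0.66. The summed adipocyte signal was 8252 ± 3651 (SD, n = 4) with saline and 4505 ± 1109 (SD, n = 4) with leptin, with ranges of 3643 to 12366 and 3473 to 5789 that overlapped. The part of other cell types in the values of the claudins was not tested beyond these fits.

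**Figure D4:**
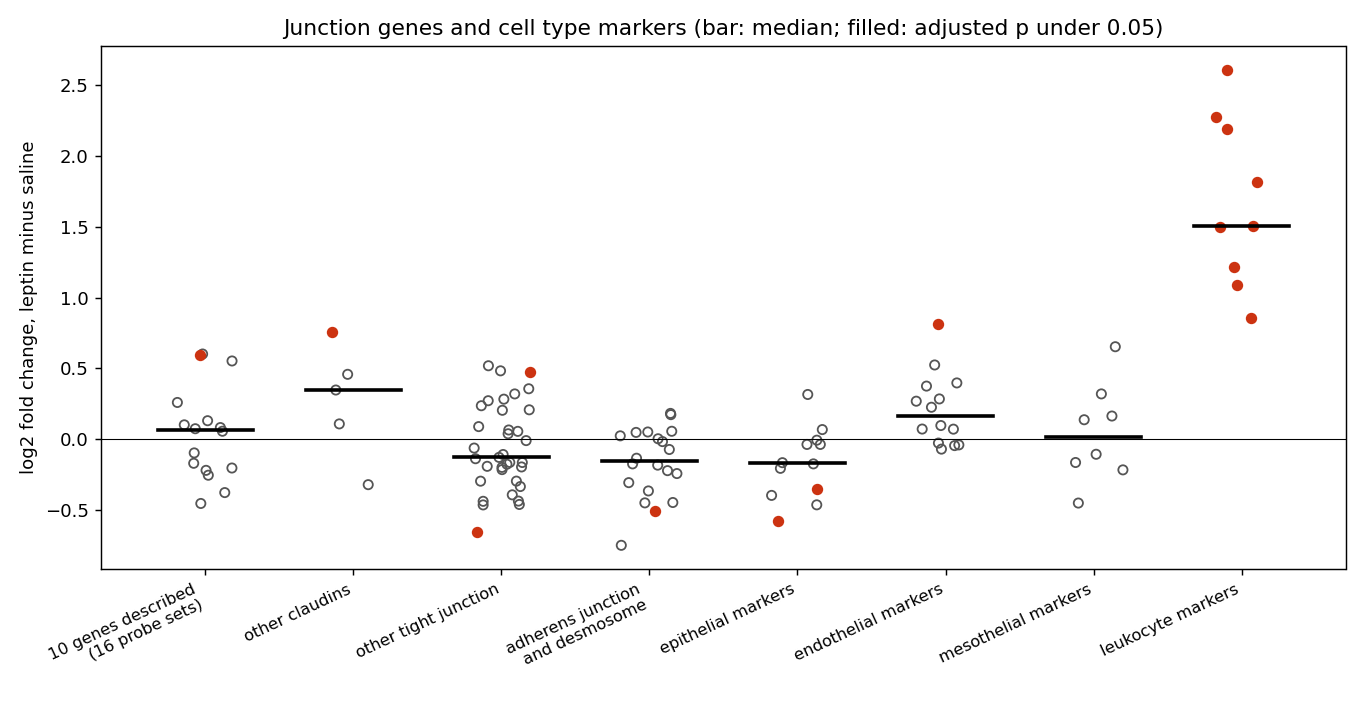
Log2 fold change, leptin minus saline, of each tested probe set of the 10 genes and of the brightest probe set of each gene in other lists; bars are medians and filled points have an adjusted p under 0.05. The junction lists have medians of 0.35 (other claudins, 5 genes), -0.13 and -0.15, with 1 or 2 filled points each, while all 9 leukocyte markers are filled, the lowest at 0.85.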

How the data were processed

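The values are MAS 5.0 signals, intensities on a linear scale deposited by the authors, with MAS5 named per the submitters' processing notes; for its version the sources give nothing, nor for detection calls. Arrays were set to a common 2% trimmed mean. A pseudocount of 8.2, the 10th percentile over all arrays, was added before log2, which understates the fold changes of dim genes. Tests left out 64 control probe sets and all others with a mean log2 value under the median, so that 22519 remained. Treatments were compared with limma 3.58.1 in R 4.3.3 (lmFit, eBayes with a mean-variance trend, treatment as the only term). Tests were two-sided, p-values were adjusted by Benjamini and Hochberg's method across these 22519, and 0.05 was the threshold. A positive log2 fold change means higher with leptin. The fit was tested on simulated data.

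Background, 46.0, is the 95th percentile of 27 control probe sets for bacterial sequences. Symbols came from the array's annotation: 34958 probe sets had 1, 932 several and 9211 none. For 34754 the symbol was then read through the Entrez identifier, whether or not this changed it. In list comparisons, a gene was read from its brightest probe set. The text names all probe sets of the 10 genes, called genes of the other junction lists, the 2 profiles most like that of a called gene, and up to 2 of the brightest markers of epithelium and endothelium. Sox18, Tie1, Cdh5, Kdr, Pecam1, Cdh1, Epcam, Krt19, Smtn, Actg2 and Cidec were added after their values were seen. The genes and lists were chosen with earlier results of these data known. No 2 arrays were identical. Nothing in the labels says how mice were assigned to pools or arrays to batches, so p-values measure the spread between these pools. Alternatives covered scaling, pseudocount, filter, variance model, array weights, the actin ratio, averaging probe sets of a gene and leaving out each pool. The number of arrays limits the precision.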

Additional observations from a re-analysis of the deposited data

Results flagged for a closer look

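Of 56 sets of 4 pools examined for a pool lying apart from the other 3, 3 met Dixon's 95% criterion, and chance gives about 1 in 20. On Cldn3 1434651_a_at saline 1 had a signal of 3878.4, against 2948.2 to 3100.2 in the other saline pools. On Cldn1 1438850_at, below background in all pools, saline 2 had 21.4, against 1.7 to 3.2. For Krt18, leptin 8 had 7148.3, against 6719.9 to 6780.5 in the other leptin pools.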

How the results depend on the processing

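No paired analysis was possible because leptin and saline pools share no replicate numbers. Of the probe sets of the 10 genes, the count called higher, 1 as reported, was 0 with median centring, quantile or loess scaling, endothelial marker centring (added after the data were seen), no filter, no mean-variance trend or the actin covariate. It was 2 with epithelial marker centring, a pseudocount of 32, a filter at the 75th percentile, the robust variance model or array weights, and 0 to 1 without each pool in turn. The count called lower, 0 as reported, was 4 with median centring, 2 with endothelial centring and 0 to 1 without each pool. Over all probe sets, 798 were higher and 763 lower as reported. Those higher were 406 with median centring, 398 with endothelial centring, 462 with the filter at the 75th percentile, 249 with the actin covariate and 485 to 713 without each pool. Those lower were 3586 with median centring, 175 and 2447 with epithelial and endothelial centring, 389 without the trend, 405 with the actin covariate and 388 to 718 without each pool.

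Some log2 fold changes that were not called changed sign. With the actin covariate, Cldn1, the largest as reported at 0.60, was at -0.12, and Cldn2 1417231_at at 0.013. With median and then endothelial centring, Cldn2 1417232_at was at -0.19 and -0.15, Cldn3 1434651_a_at at -0.18 and -0.14, 1451701_x_at at -0.12 and -0.080, 1460569_x_at at -0.17 and -0.13, and Ocln 1448873_at at -0.15 and -0.11. Cldn12 1433782_at was at 0.072 with epithelial centring. Leaving out single pools, Cldn2 1417232_at ran from -0.11 to 0.14 and Cldn4 from -0.44 to 0.19. The cause of these differences was not tested. Signals near or under background limit what can be said of Cldn1.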
